A study of Mus musculus with 6 samples.

Results

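The 42 genes described here are nuclear genes that encode subunits of the mitochondrial respiratory chain and of ATP synthase, listed by name and followed complex by complex in bone marrow-derived macrophages (BMDMs) with and without Acly. They were 20 genes of complex I, 3 of complex II, 7 of complex III, 10 of complex IV and 2 of complex V, out of 24562 gene symbols in the deposited count table. *Ndufa4*, named after complex I, was counted with complex IV, where its protein is placed. All 42 had enough reads to be tested, among 11470 genes tested in all. RNA came from unstimulated BMDMs of mice on a C57Bl/6J background, and 3 AclyM-KO libraries were compared with 3 control libraries. AclyM-KO mice carried *loxP*-flanked *Acly* alleles (Acly fl/fl) together with a Cre driven from *Lyz2*, which is active in macrophages, monocytes and neutrophils, while control mice were Acly fl/fl without Cre. The study describes the bone marrow donors of its cell culture work as adult mice of both sexes, and the sex and exact age behind each library are not given in the sources used here. Cells were differentiated with L929-conditioned medium and left without stimulus, labelled Naive, and the study describes its BMDM replicates as technical replicates of pooled mice. Differences between individual mice may therefore be missing from their spread, and the p-values measure only the spread between these libraries.

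The respiratory chain passes electrons from NADH through complex I, and from succinate through complex II, to ubiquinone, and then through complex III and cytochrome c to complex IV, which reduces oxygen. Complexes I, III and IV pump protons across the inner mitochondrial membrane, and complex V uses the returning protons to make ATP. The catalytic centre of complex IV and the membrane arm of complex I are built around subunits encoded by mitochondrial DNA, to which nuclear genes such as those described here add the remaining subunits. Macrophages change their use of this chain when activated, and Acly makes cytosolic acetyl-CoA from citrate exported by the same mitochondria.

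Libraries held 19327459 to 44507233 counts summed over all transcripts, and only AclyM-KO replicate 2 was above 23582992. The counts of *Acly* were 2424, 3117 and 2614 in control and 1072, 2617 and 1127 in AclyM-KO replicates 1, 2 and 3, a difference of -1.25 on the log2 scale (edgeR, adjusted p = 5.58e-07). *Lyz2*, which drives the Cre, fell by 1.05 on the log2 scale. The 6 macrophage markers were all tested, 2 of them were lower (*Mertk* and *Csf1r*, the latter lost without AclyM-KO replicate 3 or any single control library, with adjusted p up to 0.137 in edgeR), and their summed level was 8422 to 8626 CPM (counts scaled to a common library size) in control and 6832 to 8085 CPM in AclyM-KO libraries. In such bulk RNA, fewer cells of a type and less RNA per cell cannot be told apart. The summed level of 6 lymphocyte markers did not exceed 0.448 CPM in any library, that of 6 stromal markers did not exceed 0.718 CPM, and that of 6 neutrophil and progenitor markers lay between 13.2 and 18.4 CPM. Of 6 dendritic and mast cell markers only *Kit* was tested, and it rose by 1.07 on the log2 scale (adjusted p = 5.05e-04 in edgeR).

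The transcripts of the respiratory chain differed little between AclyM-KO and control macrophages. Only 1 of the 42 genes passed the threshold of 0.05 on the adjusted p in edgeR, *Uqcrq* of complex III, which was higher in AclyM-KO macrophages, and 0 were lower. Of all 11470 genes tested, 12.3% passed the threshold, 6.7% as higher and 5.65% as lower. The 42 log2 fold changes lay between -0.27 (*Ndufa6*) and 0.35 (*Uqcrq*), with a median of 0.08 beside 0.00026 over all genes tested. In all 42 genes, the 95% interval of the change stayed within a 1.5-fold difference in either direction, which is 0.58 on the log2 scale. A p that misses the threshold does not show equal levels, and these intervals give the size of change that the data leave for each gene. At an unadjusted p under 0.05 there were 8 of the 42 genes, beside 27.3% of all genes tested. An exon of 11 of the 42 genes overlaps another gene, among them *Ndufa9*, *Ndufb5*, *Ndufb8* and *Cox4i1*, 6 have a near-identical pseudogene (2 of these are among the 11), and *Cox5b* is near-identical to *Gm11273*, so their counts are less certain. The 26 genes with none of these, *Uqcrq* among them, had a median of 0.11.

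**Figure D1:**
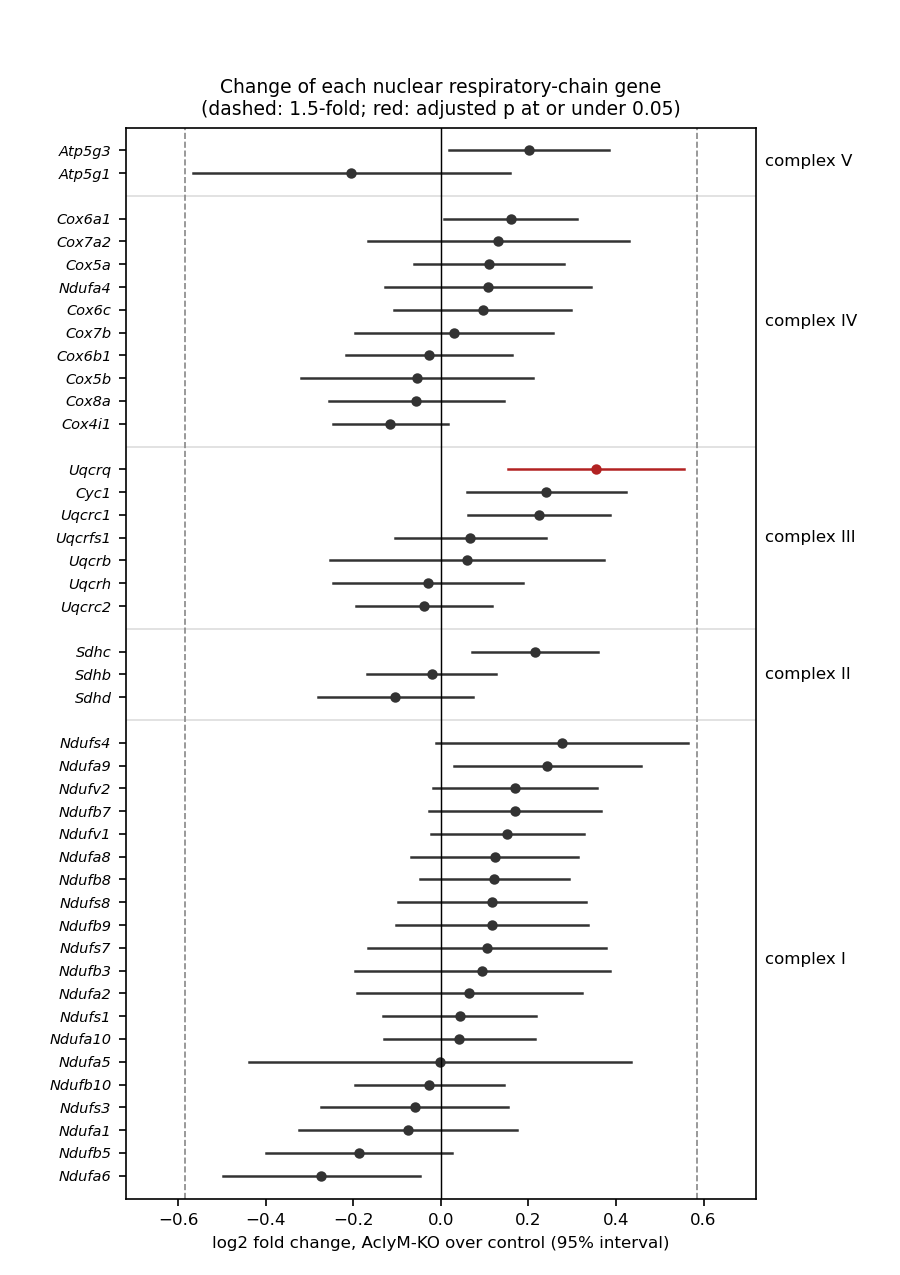
Log2 fold change of AclyM-KO over control with its 95% interval (horizontal axis) for the 42 nuclear respiratory-chain genes, one per line, grouped by complex. Dashed lines mark a 1.5-fold difference, within which all 42 intervals lie, and *Uqcrq* is the only gene past the threshold.

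The groups of libraries overlapped in 30 of the 42 genes and stood apart in 12, beside 32.8% of all genes tested that stood apart. All 3 AclyM-KO libraries were above all 3 control libraries in 10 genes and below them in 2 genes, *Ndufa6* and *Cox4i1*. Among all genes tested, 16.3% had all AclyM-KO libraries above and 16.6% had all of them below the control libraries. The summed level of the 42 genes was 2317, 2353 and 2336 CPM in control replicates 1, 2 and 3 and 2394, 2516 and 2365 CPM in AclyM-KO replicates 1, 2 and 3. The groups did not overlap in this sum, and their means of 2335 ± 18.2 and 2425 ± 79.9 CPM (SD, n = 3 each) had a ratio of 1.04.

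AclyM-KO replicate 2 stood apart among the 42 genes as it did in depth. It was the library with the highest CPM in 20 of the 42 genes, whereas each other library held that place in 2 to 7 genes. The median deviation of the 42 genes from their own mean over the 6 libraries was 0.12 on the log2 scale in this library and between -0.05 and 0.01 in the others. Over all genes tested it was 0.0088 in this library. The SD of log2 CPM was larger over the AclyM-KO than over the control libraries in 32 genes. The shares of all genes tested that match these counts were not computed. For pairs of libraries, chi-square per degree of freedom over all genes tested was 3.24 to 6.77 within control and 8.53 to 24.3 within AclyM-KO. The pairs with AclyM-KO replicate 2 had 22.8 and 24.3. The same library had the highest summed level of 9 proliferation markers, 1115 CPM, beside 777.0 and 829.6 CPM in the other AclyM-KO libraries and 562.3 to 654.0 CPM in control, and the lowest sum of macrophage markers, 6832 CPM. Without it, the median change of the 42 genes was 0.01, and 5 genes passed the threshold, namely *Uqcrq*, *Uqcrc1*, *Cyc1* and *Sdhc* as higher and *Ndufa6* as lower, while 18.5% of all genes did. With this library thinned to the depth of the others, the median change was 0.09 and 1 gene passed the threshold, close to the values at full depth. The part of proliferation or macrophage content in these values was not tested.

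**Figure D2:**
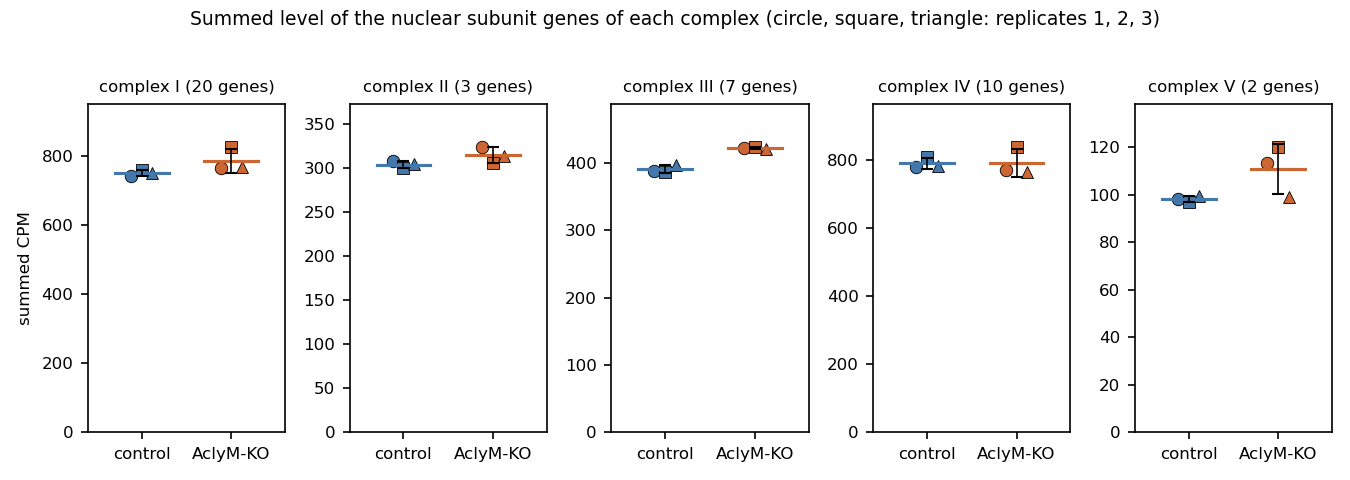
Summed CPM (vertical axes, each from 0) of the genes of each complex in the 3 control and 3 AclyM-KO libraries, with the mean and its SD. All AclyM-KO libraries sit above all control libraries in complex I, at 765.2 to 827.0 against 743.7 to 760.4 CPM, and in complex III, at 420.5 to 423.5 against 386.5 to 397.3 CPM, while AclyM-KO replicate 2 is the highest point of every complex but complex II.

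Complex III held the gene past the threshold. *Uqcrq* (counted as NM_025352, the gene spanning 53427922 to 53430831 on chromosome 11 of mm10, with 2 exons on the minus strand) encodes a small accessory subunit of the complex. It was at 35.0, 34.9 and 30.6 CPM in control replicates and at 40.4, 42.4 and 45.8 CPM in AclyM-KO replicates. Every AclyM-KO library was thus above every control library, and the difference was 0.35 on the log2 scale (edgeR, SE 0.0920, adjusted p = 0.0275), or 1.28-fold. The call was lost without any single control library, with adjusted p between 0.0760 and 0.145 in edgeR and log2 fold changes of 0.39, 0.39 and 0.29 without control replicates 1, 2 and 3, and without AclyM-KO replicate 3, at 0.0844 and 0.31. In the fits without a control library, 5.15% to 5.69% of all genes passed the threshold.

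*Uqcrc1* encodes a core protein of complex III on the matrix side. It was at 99.8, 92.0 and 91.3 CPM in control and at 109.5, 104.3 and 117.1 CPM in AclyM-KO libraries, a log2 fold change of 0.22 (95% interval 0.06 to 0.39, adjusted p = 0.0701 in edgeR). *Cyc1* encodes cytochrome c1, the heme protein that hands electrons to cytochrome c, and was at 33.2, 32.5 and 35.7 CPM in control and at 40.9, 39.8 and 39.1 CPM in AclyM-KO libraries. Its log2 fold change was 0.24 (95% interval 0.06 to 0.42, adjusted p = 0.0838 in edgeR). In both genes the groups did not overlap, but neither passed the threshold. Without AclyM-KO replicate 2, the adjusted p in edgeR was 0.00488 for *Uqcrc1* and 0.0438 for *Cyc1*. Over the alternatives tried in edgeR, DESeq2 and limma-voom, it ranged from 0.00488 to 0.254 for *Uqcrc1* and from 0.0436 to 0.274 for *Cyc1*.

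The other 4 genes of complex III showed overlapping groups. *Uqcrfs1*, which encodes the Rieske iron-sulfur protein, had a log2 fold change of 0.07, *Uqcrb* of 0.06, *Uqcrc2*, the partner of *Uqcrc1*, of -0.04, and the hinge protein gene *Uqcrh* of -0.03. *Uqcrh* turned to 0.0062 when libraries were scaled by total counts only, which moved the median of all genes tested to 0.036. It turned to 0.06 without AclyM-KO replicate 3. The summed level of complex III was 387.0, 386.5 and 397.3 CPM in control and 421.7, 423.5 and 420.5 CPM in AclyM-KO libraries, with means of 390.3 ± 6.09 and 421.9 ± 1.53 CPM (SD, n = 3 each). These sums did not overlap, and here AclyM-KO replicate 2 lay close to the other AclyM-KO libraries.

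Complex II, succinate dehydrogenase, is encoded by nuclear genes alone and also works in the tricarboxylic acid cycle. *Sdhc* (counted as NM_025321, the gene spanning 171129157 to 171150640 on the minus strand of chromosome 1) encodes a membrane anchor of the complex that takes part in heme and ubiquinone binding. It was at 114.0, 121.1 and 114.5 CPM in control and at 139.4, 131.9 and 135.1 CPM in AclyM-KO libraries, without overlap. The log2 fold change of 0.22 (95% interval 0.07 to 0.36) had an adjusted p of 0.0531 in edgeR, just outside the threshold. Over the alternatives tried, this adjusted p ranged from 0.00548 to 0.207. *Sdhd*, the other anchor, had a change of -0.10 (-0.04 without AclyM-KO replicate 2, -0.17 without AclyM-KO replicate 1 and -0.06 without control replicate 1) and *Sdhb*, the iron-sulfur subunit, of -0.02, each with overlapping groups.

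Complex I takes electrons from NADH and has the most subunits of the complexes. Of its 20 genes described here, 0 passed the threshold, 14 had positive and 6 negative fold changes, and the median was 0.10. The 6 core genes, whose products include the carriers of the flavin and of iron-sulfur clusters, had a median of 0.11, and the 14 accessory genes had a median of 0.08. The accessory gene *Ndufa6* showed the lowest change of all 42 genes. It was at 36.4, 35.2 and 38.7 CPM in control and at 30.7, 33.5 and 26.3 CPM in AclyM-KO libraries, a log2 fold change of -0.27 (95% interval -0.50 to -0.05, adjusted p = 0.108 in edgeR). All AclyM-KO libraries were below the control libraries, and without AclyM-KO replicate 2 the adjusted p in edgeR was 0.00950. Over the alternatives tried in edgeR, DESeq2 and limma-voom, the adjusted p of *Ndufa6* ranged up to 0.301. Its log2 fold change ranged from -0.36 to -0.19.

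Among the core genes, *Ndufv2* and *Ndufv1*, both parts of the NADH-oxidizing module, had all AclyM-KO libraries above all control libraries. *Ndufv2* was at 49.6, 57.1 and 54.6 CPM in control and at 58.2, 65.3 and 57.3 CPM in AclyM-KO libraries, a difference of 0.17 on the log2 scale (edgeR, adjusted p = 0.232). Without AclyM-KO replicate 2 this difference was 0.10. *Ndufv1*, whose product binds the flavin, had a change of 0.15 (adjusted p = 0.250 in edgeR). The iron-sulfur subunit genes *Ndufs8*, *Ndufs7* and *Ndufs1* had changes of 0.12, 0.10 and 0.04, and *Ndufs3* of -0.06, with overlapping groups.

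Of the accessory genes with higher values, *Ndufa9* was at 46.7, 46.7 and 43.9 CPM in control and at 52.1, 61.6 and 48.0 CPM in AclyM-KO libraries (log2 fold change 0.24, adjusted p = 0.134 in edgeR). *Ndufs4*, a gene mutated in inherited complex I deficiency, was at 20.9, 20.5 and 20.9 CPM in control and at 22.2, 30.3 and 22.0 CPM in AclyM-KO libraries (log2 fold change 0.28, adjusted p = 0.199 in edgeR). In both, the groups did not overlap, and AclyM-KO replicate 2 was well above the other AclyM-KO libraries. Without it the log2 fold change was 0.13 for *Ndufa9* and 0.09 for *Ndufs4*. *Ndufb5*, part of the membrane arm, was at 41.4, 40.3 and 38.6 CPM in control and at 38.7, 36.0 and 30.8 CPM in AclyM-KO libraries, and its groups overlapped (log2 fold change -0.19, or -0.11 without AclyM-KO replicate 3, adjusted p = 0.245 in edgeR). *Ndufb7* was the only other gene of the complex with all AclyM-KO libraries above all control libraries, at 0.17 on the log2 scale. The summed level of complex I was 743.7, 760.4 and 751.8 CPM in control and 765.2, 827.0 and 767.3 CPM in AclyM-KO libraries, without overlap.

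Complex IV, cytochrome c oxidase, passes electrons to oxygen. Of its 10 genes, 0 passed the threshold, and the median change was 0.06. *Cox4i1*, the common isoform of subunit IV, was at 252.1, 253.5 and 259.5 CPM in control and at 235.7, 239.0 and 230.9 CPM in AclyM-KO libraries. The AclyM-KO libraries were below the control libraries in this gene, and the log2 fold change of -0.12 (95% interval -0.25 to 0.02) had an adjusted p of 0.242 in edgeR. *Cox6a1*, the common isoform of subunit VIa, was at 77.2, 81.4 and 78.2 CPM in control and at 86.0, 86.3 and 92.4 CPM in AclyM-KO libraries, without overlap, a log2 fold change of 0.16 (95% interval 0.0073 to 0.31, adjusted p = 0.164 in edgeR). The other 8 genes of complex IV had overlapping groups and changes between -0.06 (*Cox8a*) and 0.13 (*Cox7a2*). The summed level was 790.7 ± 16.2 CPM in control and 790.8 ± 41.5 CPM in AclyM-KO libraries (SD, n = 3 each).

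**Figure D3:**
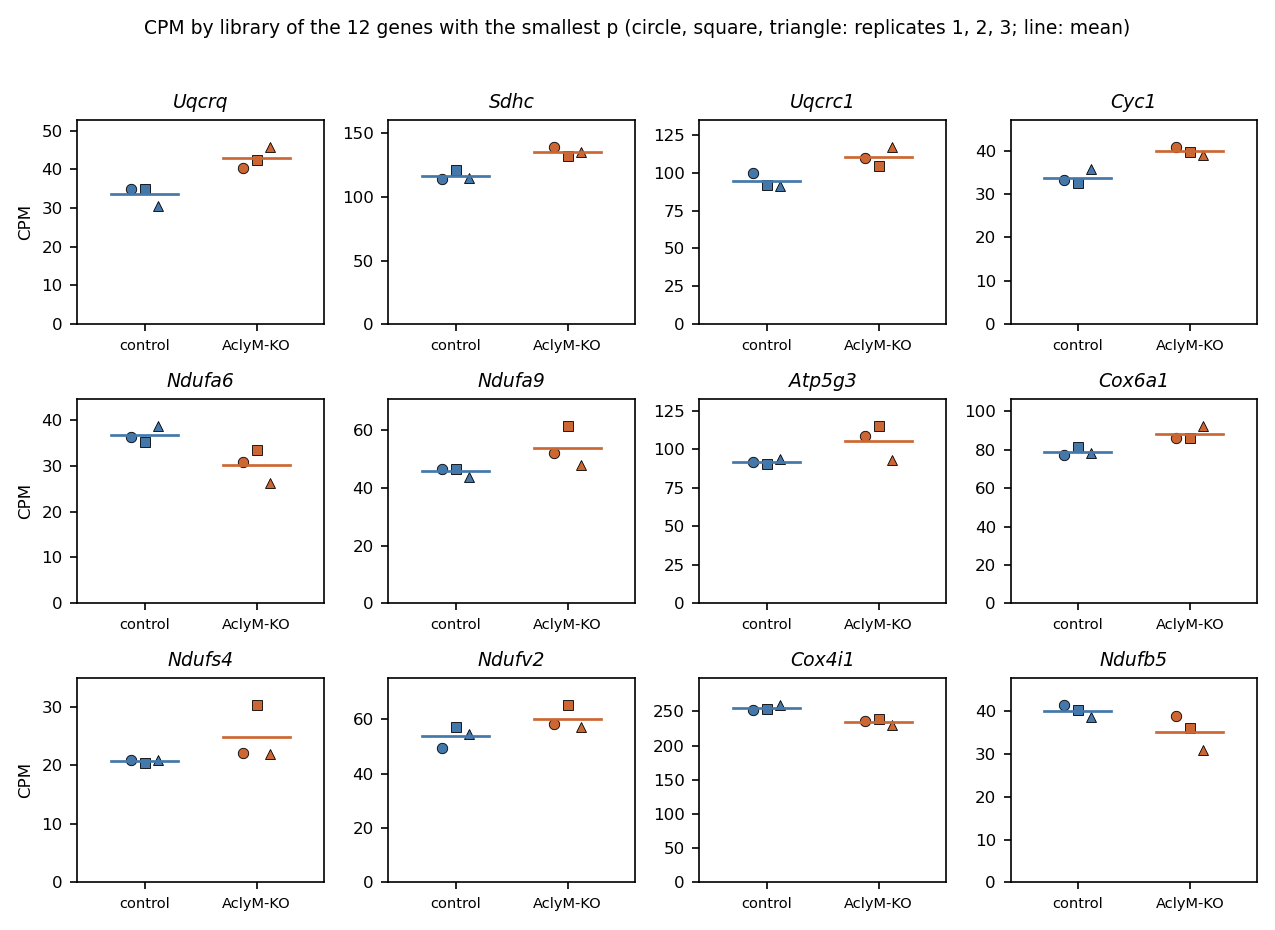
CPM by library (vertical axes, each from 0) of the 12 genes with the smallest p in edgeR, in control and AclyM-KO libraries, with the mean as a line. *Uqcrq* is the only one past the threshold, and in *Ndufs4*, *Ndufa9* and *Ndufv2* AclyM-KO replicate 2 is the highest of the 6 libraries.

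Complex V is ATP synthase, and *Atp5g1* and *Atp5g3* encode precursors of its c subunit, which forms the proton-carrying ring, that differ in the leader peptide removed on import. *Atp5g3* was at 91.7, 90.5 and 93.6 CPM in control and at 108.5, 115.0 and 93.0 CPM in AclyM-KO libraries. Replicate 3 of the AclyM-KO group lay within the control range and the others above it, and the log2 fold change was 0.20 (95% interval 0.02 to 0.38, adjusted p = 0.143 in edgeR). Without that library the adjusted p in edgeR was 0.0431, and *Atp5g3* was then the only one of the 42 genes past the threshold, in a fit where 9.08% of all genes were. Without AclyM-KO replicate 2 its log2 fold change was 0.13. *Atp5g1* was at 6.46, 6.35 and 5.77 CPM in control and at 4.79, 5.21 and 6.19 CPM in AclyM-KO libraries, with 55 to 138 counts per library. Its groups overlapped, and its log2 fold change of -0.20 (95% interval -0.57 to 0.16, adjusted p = 0.471 in edgeR) was opposite in sign to that of *Atp5g3*.

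Levels of different genes can be compared only per transcript length, here as RPKM, the CPM divided by the length of the annotated transcript in kilobases. In control libraries the median RPKM of complex IV was 100.2, that of complex II 78.0, that of complex V 69.6, that of complex III 43.8 and that of complex I 33.2. In AclyM-KO libraries these medians were 107.2, 74.6, 78.4, 42.6 and 36.4. Complexes II and V, with 3 and 2 genes, held the reverse order in AclyM-KO replicates 1 and 2 and the control order in replicate 3. Within complexes the levels spread widely. *Cox4i1* had 342.3 ± 5.26 RPKM and *Cox5b* 28.2 ± 1.14 RPKM in control (SD, n = 3 each), a 12.2-fold difference between subunits of complex IV. The transcript of *Cox5b* matches *Gm11273* over 390 bases at 99.2% identity, so its level and this difference are uncertain.

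Among the genes of complex I described here, *Ndufb8* was highest with 98.8 ± 6.37 RPKM and *Ndufs4* lowest with 12.2 ± 0.152 RPKM in control (SD, n = 3 each). In complex III these places were held by *Uqcrh*, with 106.3 ± 5.55 RPKM, and *Uqcrq*, with 22.0 ± 1.66 RPKM. In complex II *Sdhc* was lowest with 36.8 ± 1.26 RPKM, and *Sdhd* and *Sdhb*, with 80.1 ± 4.76 and 78.0 ± 1.98 RPKM, did not differ beyond their spread. *Uqcrq* and *Cyc1*, with 22.2 ± 1.11 RPKM, did not differ beyond their spread in control, and in AclyM-KO libraries, with 28.2 ± 1.80 and 26.3 ± 0.605 RPKM (SD, n = 3 each), their ranges overlapped. These places depend on the annotated length, which is 1521 bases for *Uqcrq* and 3171 bases for *Sdhc*, the longest transcript of complex II.

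**Figure D4:**
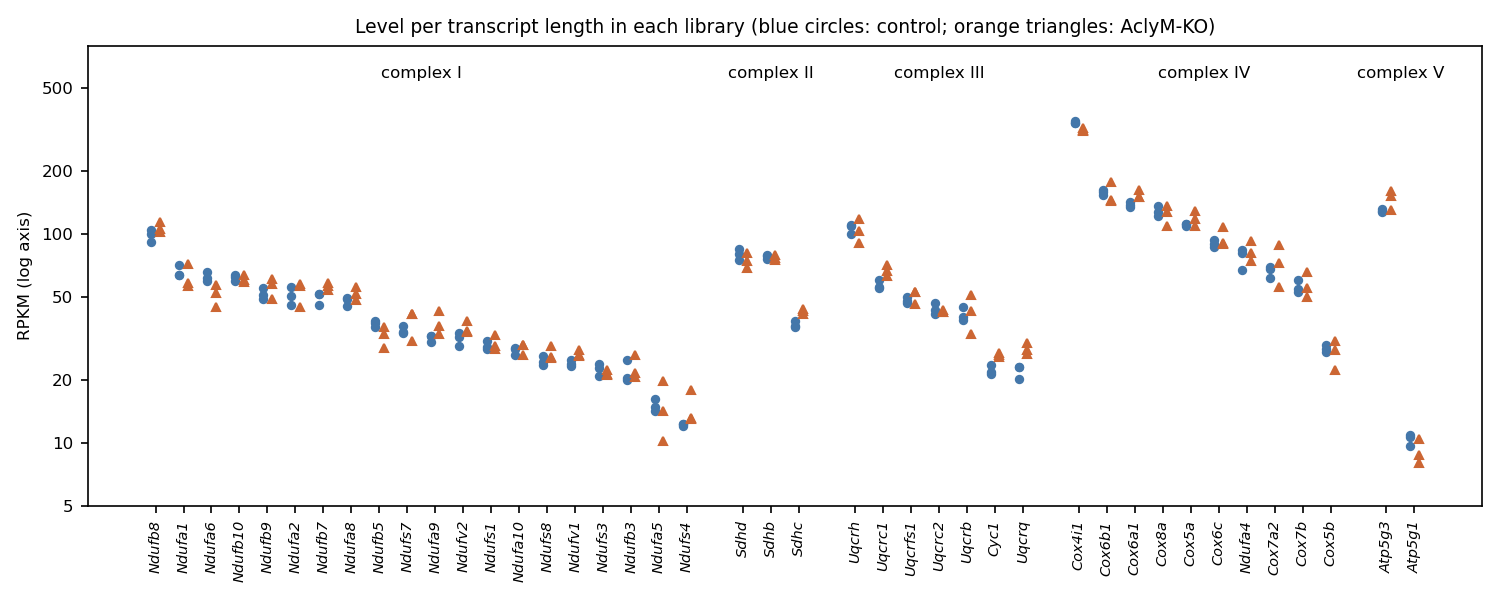
RPKM in each library (vertical axis, logarithmic) of the 42 genes, grouped by complex, in control and AclyM-KO libraries. *Cox4i1* is highest and *Atp5g1* lowest, at 342.3 and 10.4 RPKM on average in control.

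The c-subunit genes also differed widely in level. *Atp5g3* had 128.7 ± 2.16 RPKM and *Atp5g1* 10.4 ± 0.617 RPKM in control (SD, n = 3 each), a 12.4-fold difference. Of the summed RPKM of *Atp5g1*, *Atp5g3* and *Atp5g2*, a further gene for the same subunit, *Atp5g3* held 83.1% to 85.1% in control and 83.7% to 89.1% in AclyM-KO libraries. The ratio of *Atp5g3* to *Atp5g1* was 11.9, 11.9 and 13.5 in control and 18.9, 18.4 and 12.5 in AclyM-KO libraries, so AclyM-KO replicate 3 stayed within the control range. The transcript of *Atp5g1* matches the pseudogene *Gm10039* over 411 bases at 99.8% identity. The alignments were filtered on mapping quality, so the level of *Atp5g1* is uncertain.

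Sites for the factors NRF1, GABP (of the ETS family) and YY1 are known from promoters of nuclear respiratory-chain genes. RefSeq windows from 250 bases before to 50 bases after the start (GRCm38.p6, the assembly of mm10) matched 32 of the 42 genes. Both strands were searched for GCGCA, any base and then GCGC (NRF1), CCGGAAG (ETS) and AAGATGGC (YY1). The NRF1 letters occurred in the windows of 7 of the 32 genes (21.9%), beside 12.3% of the genes tested and 5.19% of all genes with a window. The ETS letters occurred in 9 genes (28.1%, beside 21.6% of the genes tested and 9.93% of all), and the YY1 letters in 4 genes (12.5%, beside 5.76% and 3.19%). A match is a stretch of letters and not a measured binding site.

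The windows below belong to the c-subunit pair, because of its difference in level, and to *Cox6a1* and *Uqcrc1*, the genes with 2 NRF1 matches each. They are printed 5′ to 3′ on the strand of the gene, with motif matches in capitals. That of *Atp5g1* is chr11:96075582-96075881 (minus strand), that of *Atp5g3* chr2:73911277-73911576 (minus strand), that of *Cox6a1* chr5:115348909-115349208 (minus strand) and that of *Uqcrc1* chr9:108936398-108936697 (plus strand).
Atp5g1: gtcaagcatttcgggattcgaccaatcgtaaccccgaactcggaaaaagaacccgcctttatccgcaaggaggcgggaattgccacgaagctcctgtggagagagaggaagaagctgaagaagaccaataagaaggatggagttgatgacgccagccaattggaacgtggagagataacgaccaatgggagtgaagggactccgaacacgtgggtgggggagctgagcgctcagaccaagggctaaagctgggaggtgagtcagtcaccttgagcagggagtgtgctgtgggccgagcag
Atp5g3: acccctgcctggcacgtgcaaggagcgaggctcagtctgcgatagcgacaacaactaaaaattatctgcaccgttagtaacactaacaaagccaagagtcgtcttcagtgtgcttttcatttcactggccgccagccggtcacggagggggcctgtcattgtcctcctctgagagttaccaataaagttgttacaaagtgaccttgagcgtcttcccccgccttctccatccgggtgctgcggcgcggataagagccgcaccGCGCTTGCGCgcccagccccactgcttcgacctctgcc
Cox6a1: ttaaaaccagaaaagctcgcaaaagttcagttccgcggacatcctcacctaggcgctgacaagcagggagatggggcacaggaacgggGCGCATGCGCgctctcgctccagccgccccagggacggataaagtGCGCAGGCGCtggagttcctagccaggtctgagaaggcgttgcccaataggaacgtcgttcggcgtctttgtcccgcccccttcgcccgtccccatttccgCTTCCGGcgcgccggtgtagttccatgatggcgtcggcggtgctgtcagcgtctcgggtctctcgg
Uqcrc1: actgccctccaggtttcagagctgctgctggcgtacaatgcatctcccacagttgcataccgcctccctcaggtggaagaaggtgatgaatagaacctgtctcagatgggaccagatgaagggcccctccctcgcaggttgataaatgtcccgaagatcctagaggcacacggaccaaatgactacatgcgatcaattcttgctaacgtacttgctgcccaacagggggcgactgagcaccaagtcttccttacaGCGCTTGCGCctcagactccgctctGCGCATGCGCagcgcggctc

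The window of *Atp5g1* held none of the 3 motifs, that of *Atp5g3* held 1 NRF1 match, that of *Uqcrc1* held 2, and that of *Cox6a1* held 2 NRF1 matches and 1 ETS match, with no overlap between matches. *Cox6a1* and *Uqcrc1* had log2 fold changes of 0.16 and 0.22, *Atp5g3* of 0.20 and *Atp5g1* of -0.20, and 0 of these 4 genes passed the threshold. Of the other genes with an NRF1 match, *Ndufa8* had a change of 0.12, *Ndufa5* of -0.0022, *Sdhd* of -0.10 and *Ndufa6* of -0.27, so genes with these letters lay on both sides of 0. The windows of *Ndufa5* are built on starts 323 and 487 bases downstream of the start of the transcript matched to its counted row. They lie wholly downstream of that transcript start.

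Genes that act with the 42 were examined from lists written by hand. Of 35 other nuclear subunit genes, all were tested, 1 was higher and 0 were lower, beside 6.7% and 5.65% of all genes tested. Their median difference was 0.07 on the log2 scale. The gene past the threshold was *Atp5b*, which encodes the catalytic beta subunit of ATP synthase. Its counts were 5062, 5997 and 5109 in control and 6330, 15175 and 6208 in AclyM-KO libraries, or 456.5 ± 7.19 and 555.3 ± 16.3 CPM (SD, n = 3 each). All AclyM-KO libraries were above all control libraries in CPM, with a difference of 0.28 on the log2 scale (edgeR, SE 0.0603, adjusted p = 0.0108). This call was lost without any single control library, with adjusted p between 0.0636 and 0.0740 in edgeR, while the difference stayed between 0.27 and 0.29 in these fits, where fewer of all genes passed as well. The widest change of the list was that of the cytochrome c gene *Cycs*, with 38 to 226 counts per library, at 0.46 (95% interval -0.20 to 1.12), and it turned to -0.04 without AclyM-KO replicate 2.

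Some subunits of complex IV and cytochrome c have isoforms made mainly in particular tissues. Of 8 such genes, 3 had 0 counts in every library (*Cox8b*, *Cox7b2* and *Cyct*), and only *Cox6a2* and *Cox7a1* were tested. *Cox6a2*, the muscle and heart form of the subunit for which *Cox6a1* is the common form, had 14, 9 and 14 counts in the control group against 21, 61 and 27 in AclyM-KO libraries. This was 1.07 and 2.16 CPM on average, a log2 fold change of 1.05 (95% interval 0.38 to 1.72, adjusted p = 0.0449 in edgeR). The call was lost with DESeq2 (adjusted p = 0.103), with AclyM-KO replicate 2 thinned to the depth of the others (0.0542 in edgeR), without AclyM-KO replicate 2 (0.0727) or 3 (0.100), and without any single control library (between 0.0924 and 0.196, with log2 fold changes of 0.78 or more). *Cox7a1* had a change of 0.35 (adjusted p = 0.519 in edgeR).

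Assembly factors build the complexes from their subunits. Of 44 such genes 43 were tested and 0 passed the threshold in edgeR or DESeq2, with 2 at an unadjusted p under 0.05 (beside 27.3% of all genes tested) and a median log2 fold change of 0.05. The widest change was that of *Pet117*, a complex IV factor with 10 to 41 counts per library, at 0.63 (adjusted p = 0.212 in edgeR). Limma-voom with sample weights, and edgeR without AclyM-KO replicate 1, without AclyM-KO replicate 2 or with no filter on low counts, each called 1 gene of this list.

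Of 16 regulators and genes of mitochondrial DNA expression, 15 were tested and 0 passed the threshold in edgeR, DESeq2 or limma-voom, with 1 at an unadjusted p under 0.05 (beside the same 27.3%). This was *Tfb1m*, which modifies mitochondrial ribosomal RNA, at -0.53 on the log2 scale (edgeR, adjusted p = 0.108) with all AclyM-KO libraries below the control libraries. *Nrf1*, *Gabpa* and *Tfam*, the factor that packages and transcribes mitochondrial DNA, had changes of 0.0079, -0.03 and -0.02. *Ppargc1a*, the coactivator of mitochondrial biogenesis, had 0 to 2 counts per library and was not tested, and *Ppargc1b* had a change of -0.28 (adjusted p = 0.563 in edgeR). The 13 subunit genes of mitochondrial DNA were not analysed here. Of the 9 proliferation markers, 8 were higher, with a median of 0.60.

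**Figure D5:**
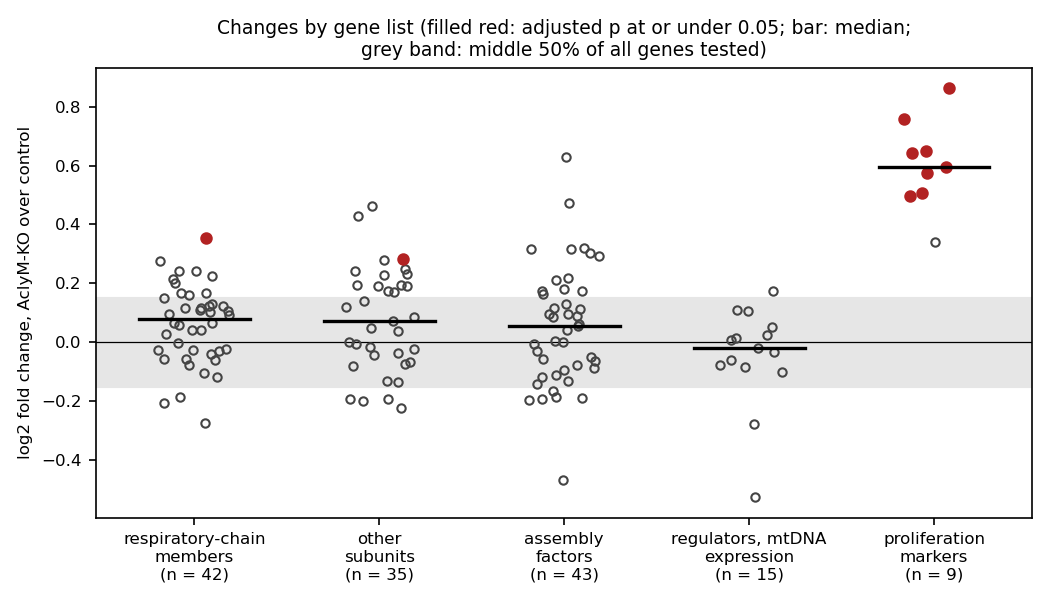
Log2 fold change of AclyM-KO over control of the tested genes of each list, with the median of each list and the genes past the threshold marked. Of the 42 respiratory-chain genes 1 passed the threshold, and of the 9 proliferation markers 8 did.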

How the data were processed

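RNA-seq was analysed in 3 control and 3 AclyM-KO BMDM libraries. The authors aligned strand-specific reads to mm10 with STAR 2.5.2b, filtered them on mapping quality and deposited raw counts per RefSeq transcript made with HOMER at default settings, with no strand setting named. Of 12 value columns, 6 match none of the samples described here and were not used. Rows were named from RefSeq (35440 of 35745) or GENCODE M21 (188), and the row with the highest total stood for each symbol. Genes were filtered by filterByExpr, scaled by TMM and tested with edgeR 4.0.16 (quasi-likelihood, two-sided, R 4.3.3), with Benjamini-Hochberg adjustment over 11470 genes and a threshold of 0.05. Standard errors follow from the F statistic. CPM use TMM-scaled totals and RPKM divide them by the GENCODE transcript length. Gene spans are those of RefSeq (GRCm38.p6). Named genes were the 12 of the 42 with the smallest p, the extremes of level, and for each supporting list the genes past the threshold and the widest change. The other genes were named by role. The 42 genes and all lists were chosen with earlier results of these data known. Alternatives included DESeq2 1.42.0 and limma 3.58.1.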

Additional observations from a re-analysis of the deposited data

How the results depend on the processing

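Of the 42 genes, 1 passed the threshold in the reported fit. With total counts only as scaling or with a GC content trend removed (chosen after seeing the data) 3 did, all higher, while 12.4% and 18.3% of all genes tested did, beside 12.3% in the reported fit. With at least 10 counts in every library or with all transcript rows tested 2 did, both higher. With limma-voom and sample weights 5 did, 4 higher and 1 lower, among 19.1% of all genes, and at an adjusted p of 0.01 the count was 0. Leaving out 1 library at a time gave 0 to 5 genes, 0 to 4 higher and 0 to 1 lower, with 0 without any single control library, where 5.15% to 5.69% of all genes were called, and 5 without AclyM-KO replicate 2, where 18.5% were, so that calls moved the same way over all genes. By complex, leaving out 1 library gave 0 to 1 genes in complex I, 0 to 1 in complex II, 0 to 3 in complex III and 0 to 1 in complex V. Limma-voom called 1 gene in complex I, 1 in complex II and 3 in complex III. Total counts only and the GC trend each called 1 in complex II and 2 in complex III, while the count minimum and all transcript rows each called 1 in complex II, and complex III had 0 at 0.01. The median change of the 42 genes was 0.0175 with limma-voom and 0.0106 to 0.0958 without single libraries, and the log2 ratio of their summed CPM was 0.0896 with total counts only, which moved the median of all genes to 0.036. Other subunits had 4 calls with limma-voom, 0 at 0.01 and 0 to 4 without single libraries. Tissue isoforms had 0 with the count minimum, DESeq2, thinning or 0.01, and 0 to 1 without single libraries. Assembly factors had 1 with no filter or limma-voom and 0 to 1 without single libraries. Without single libraries, *Cox5b* ranged from -0.169 to 0.0581, *Uqcrh* from -0.140 to 0.0577 and *Cycs* from -0.0377 to 0.718. Signs were followed through every alternative for only part of the genes. Among these, they turned for *Cox5b* without AclyM-KO replicate 3 (0.0581) and *Cycs* without AclyM-KO replicate 2 (-0.0377). They also turned for *Uqcrh* with total counts only (0.00618) and without AclyM-KO replicate 3 (0.0577). Of the other genes, *Ndufa5* turned from -0.0022 to 0.0043 with all transcript rows tested, and more may have turned. The cause was not tested.

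The replicate numbers were not used to pair the samples in the reported fit. Same-numbered libraries correlated at 0.0900, 0.114 and -0.0466 in their deviations from the group means, and the other pairs at -0.132 to 0.0699. With so few libraries, these correlations cannot decide whether the samples were paired. With the replicate number as a block, 1 of the 42 genes passed the threshold and the median change was 0.0776.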
